A study of Homo sapiens with 8 samples.

Results

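The genes of the cytosolic ribosomal proteins were described across 4 glucose groups of the human line AC16. They were chosen by symbol alone: symbols that begin RPL or RPS followed by a digit, plus RPLP0, RPLP1, RPLP2 and RPSA, without the S6 kinases, RPS19BP1 and the Y-linked copies. The rule gave 88 of the 19479 genes listed in both deposited tables. AC16 is an established line made by fusing adult human ventricular cardiomyocytes with transformed human fibroblasts, and the labels call it a cardiomyocyte line. Cells were kept for at least 3 passages at 5 mM or at 25 mM D-glucose. After reseeding and 24 h at the same level they formed the control groups of 5 mM and of 25 mM. In the other 2 groups D-glucose was added to a total of 50 mM for 24 h, by 45 mM in the 5 to 50 mM group and by 25 mM in the 25 to 50 mM group. All 4 groups shared the line, a DMEM medium with 10% fetal bovine serum and extraction of total RNA with TRIzol. Each group had 2 libraries, which the series' design text calls technical replicates. The p-values therefore measure only the spread between these libraries, which may be technical. The stated purpose was to compare each rise to 50 mM with its own control.

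A cytosolic ribosome joins a small 40S subunit, which reads the mRNA, to a large 60S subunit, which forms the peptide bond. Each carries ribosomal RNA and a set of proteins needed in near equal numbers, and the genes of these proteins are among the most highly transcribed in dividing cells. Many of their mRNAs start with a terminal oligopyrimidine tract, a C followed by a run of C and T, through which the kinase complex mTORC1 and the protein LARP1 set their translation and stability in answer to nutrients. Heart muscle adds ribosomes as it enlarges. The libraries measure mRNA, not ribosomes or translation.

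The starts of transcripts of members on which the results turn are shown first, since the tract is the feature by which nutrient signals are known to reach these mRNAs. They are RefSeq starts on the build GRCh38.p14, read 5′ to 3′ on the sense strand, with 10 bases before the listed start and 20 from it. Capitals mark the tract, and a sequence without capitals has no tract of at least 5 bases at that start. RPSA to RPL4 had among the largest differences between cultures kept at 25 mM and at 5 mM, RPL41 and RPL39 were the members of highest level, and the last 3 pairs are a core gene with its paralog.
RPSA, chr3:39406710-39406739, plus strand: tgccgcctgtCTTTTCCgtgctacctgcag
RPS24, chr10:78033853-78033882, plus strand: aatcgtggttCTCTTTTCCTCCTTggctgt
RPS12, chr6:132814559-132814588, plus strand: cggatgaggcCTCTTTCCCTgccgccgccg
RPS25, chr11:119018324-119018353, minus strand: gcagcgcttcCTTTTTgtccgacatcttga
RPL32, chr3:12840431-12840460, minus strand: ggtgacccttgacctcctgggatcgcatct
RPL4, chr15:66504836-66504865, minus strand: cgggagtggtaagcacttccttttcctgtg
RPL41, chr12:56116623-56116652, plus strand: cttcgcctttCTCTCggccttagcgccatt
RPL39, chrX:119791611-119791640, minus strand: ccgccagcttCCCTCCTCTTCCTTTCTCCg
RPL22, chr1:6199576-6199605, minus strand: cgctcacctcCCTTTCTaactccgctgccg
RPL22L1, chr3:170870176-170870205, minus strand: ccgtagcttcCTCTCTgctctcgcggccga
RPS27, chr1:153990752-153990781, plus strand: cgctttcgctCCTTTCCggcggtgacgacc
RPS27L, chr15:63157458-63157487, minus strand: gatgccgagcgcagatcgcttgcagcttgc
RPL36A, chrX:101391001-101391030, plus strand: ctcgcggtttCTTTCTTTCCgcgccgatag
RPL36AL, chr14:49620607-49620636, minus strand: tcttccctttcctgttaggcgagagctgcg
The tract was searched as C at the first base of the start followed by at least 4 bases that are each C or T, on the sense strand only. Of the 88 members, 70 had a listed start, and 48 of these (68.6%) had the tract at 1 or more of their starts. Among 15843 protein-coding genes with a listed start, 988 (6.24%) had it. The paralogs parted from their core genes in different ways: RPL22 and RPL22L1 both had a tract, while RPS27 and RPL36A had one and RPS27L and RPL36AL had none at the listed start. A match or its absence describes these letters only, and a start 1 base away would change the answer. Among the members with no entry were RPL23, RPL23A, RPL30, RPL37, RPL39L, RPL3L, RPL5, RPL7, RPL8, RPS10-NUDT3, RPS15A, RPS2 and RPS20.

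The ribosomal protein genes were among the highest in the libraries. Levels are the deposited RPKM values, in which the authors divided reads by gene length and by the depth of the library. Of the 88 members, 86 were above 0 in at least 1 library and 85 reached 1 RPKM in at least 2 libraries of every comparison, the filter for testing. The remaining 3 members were RPL10L, a copy of RPL10 without introns, the read-through gene RPS10-NUDT3, and RPL3L, the paralog of RPL3 made in heart and skeletal muscle. RPL10L and RPS10-NUDT3 had 0 reads in all 8 libraries. RPL3L had 1 read, in 25 to 50 mM replicate 2. A count of 0 allows up to 3 reads, which for a gene of 1 kb is 0.110 to 0.139 RPKM, so lower levels could go undetected. The 77 core genes of the 40S and 60S subunits had a median of 1184 RPKM over the 8 libraries, with quartiles of 845 and 1519, and 48 of them averaged at least 1000 RPKM. Members took 20 of the 50 highest places among all genes and 46 of the 100 highest.

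RPL41, which encodes the smallest protein of the 60S subunit, was the highest member at a mean of 4128 RPKM over the 8 libraries and stood at place 8 of all 19479 genes. RPL41 read 4164 and 3952 RPKM in the 5 mM libraries, 3753 and 4211 at 5 to 50 mM, 4274 and 3913 at 25 mM and 4597 and 4162 at 25 to 50 mM, so all 4 groups overlapped. RPL39, whose protein lines the tunnel through which the new peptide leaves, averaged 2607 RPKM, RPL37A 2598, RPL37 2247 and RPS27 2061. RPL39 and RPL37A did not differ beyond the spread of their libraries. These 5 members had short recovered lengths, from 78 bases for RPL41 to 294 for RPL37, and RPKM divides reads by length. By reads the order differed: RPL41 held 64007 over the 8 libraries and RPLP0, of 954 bases, 335322. At the low end of the members above the filter stood the read-through gene RPL17-C18orf32 at 6.16 RPKM, RPL36A-HNRNPH2 at 14.9, RPS9 at 76.6, RPL7L1 at 132 and RPL26L1 at 154. RPS9 is a core 40S gene, and its low RPKM goes with the length used by the authors. The reads recovered from the RPKM values gave RPS9 a length of 5850 bases, 10 times its coding length of 585. At that coding length its mean would be 766 RPKM. RPL21, RPL28 and RPS18 also had lengths over 1.5 times the longest coding length annotated for them, so their RPKM is too low per length, while their comparisons between groups use the same length throughout. These 3 were singled out after their values were seen.

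The whole class took a larger part of the counted reads in cultures kept at 25 mM than in those kept at 5 mM, and the rise to 50 mM moved it little. Shares are of the library totals recovered from the RPKM values, of which 99.94% to 99.95% lay in listed genes. Members held 4.777% and 4.826% of these reads in the 5 mM libraries and 4.587% and 4.665% at 5 to 50 mM. They held 5.401% and 5.407% at 25 mM and 5.43% and 5.549% at 25 to 50 mM. All 4 libraries kept at 25 mM were thus above all 4 kept at 5 mM. Both 5 to 50 mM libraries were below both 5 mM libraries, and both 25 to 50 mM libraries were above both 25 mM libraries. Summed RPKM averaged 91303 ± 793 (SD, n = 2) at 5 mM, 88333 ± 1282 at 5 to 50 mM, 101410 ± 313 at 25 mM and 103010 ± 688 at 25 to 50 mM. With 2 libraries against 2 an exact permutation test cannot go below p = 0.33, so the sums were not tested. The 60S genes summed to 1.642 and 1.664 times the 40S genes in the 5 mM libraries, above the other 6 libraries, which lay between 1.605 and 1.631. RPKM and shares of reads are relative measures: fewer cells and less RNA per cell cannot be told apart from them, and a larger share can also come from other RNA taking less.

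**Figure D1:**
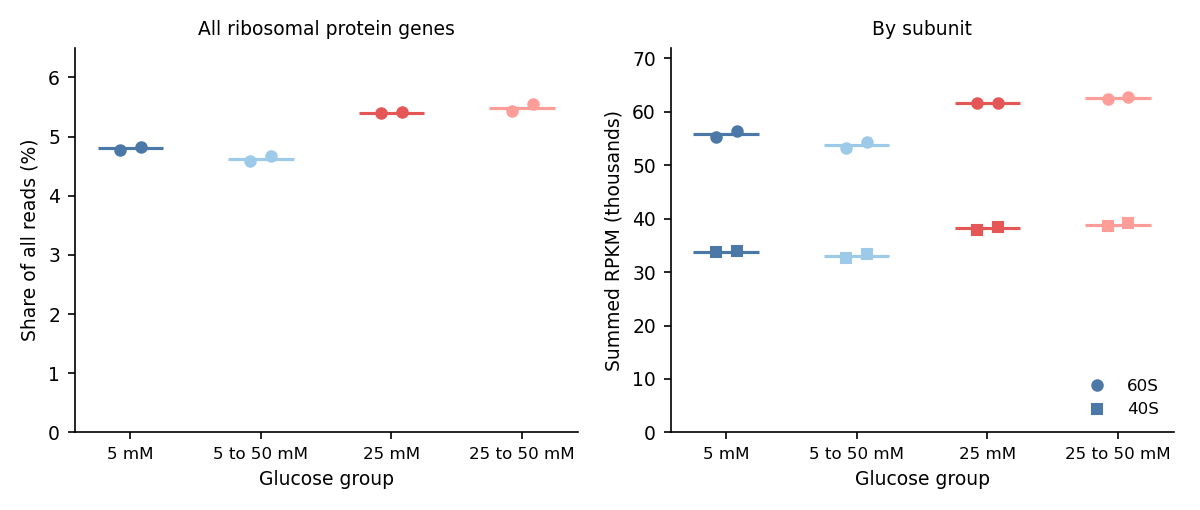
Share of all recovered reads in ribosomal protein genes (left, %) and summed RPKM (right) in each of the 8 libraries, by glucose group. On the right, circles are 60S genes and squares 40S genes. Points are libraries and lines are group means. The 4 libraries kept at 25 mM lie between 5.401% and 5.549%, above the 4 kept at 5 mM, which lie between 4.587% and 4.826%.

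The rise from 5 to 50 mM changed no ribosomal protein gene past the threshold. Of the 85 members tested, 0 passed in limma's moderated test on log2(RPKM + 1) at a Benjamini-Hochberg adjusted p under 0.05, where 0.329% of all 11849 genes tested passed in either direction. At an unadjusted p under 0.05, 0 members were higher and 3 lower (RPS26, RPL17 and RPLP0), against 5.16% and 5.36% of all genes, and limma-voom on the recovered reads also gave 0 at the adjusted threshold. The log2 changes ran from -0.22 to 0.10, 71 of 85 were negative, and their median was -0.046 beside -0.028 for all genes tested.

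RPS26, a 40S protein at the exit of the mRNA channel, had the smallest adjusted p in this rise. RPS26 read 612 and 691 RPKM at 5 mM and 567 and 559 RPKM at 5 to 50 mM, so the groups did not overlap. Its log2 change was -0.21 ± 0.07 (SE, n = 2 against 2; limma, adjusted p = 0.398). RPLP0, which anchors the stalk that recruits elongation factors to the 60S subunit, read 1780 and 1744 RPKM at 5 mM and 1576 and 1623 RPKM at 5 to 50 mM, again without overlap, and its log2 change was -0.14 ± 0.05 (limma, adjusted p = 0.432). At the other end, RPS21 had a log2 change of 0.10, RPS29 of 0.10 and RPL22L1 of 0.09, with adjusted p of 0.731, 0.565 and 0.632 in limma's test.

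The count for this rise depended on 1 library. Without 5 mM replicate 1, 13 members were lower by limma at an adjusted p under 0.05, where 4.16% of all genes were lower, and without 5 mM replicate 3, 1 member (RPL39L) was lower, as were 1.05% of all genes. Among the 13 were RPL13, RPL15, RPL28, RPL36, RPL8, RPLP1, RPLP2, RPS10, RPS15, RPS2, RPS26 and RPS28. The lone control was then 5 mM replicate 3, and such a fit assumes that it varies like the other group. Several of these genes were far apart between the 5 mM libraries themselves: RPL13 read 998 RPKM in replicate 1 and 1479 in replicate 3, RPS15 read 648 and 922, and RPLP2 read 782 and 1036. The 5 to 50 mM libraries read 1153 and 1031 RPKM for RPL13, between the 5 mM values.

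The spread between the 5 mM libraries followed the GC content of the transcripts. Over the 85 members, the log2 difference of replicate 3 from replicate 1 at 5 mM correlated with GC content at r = 0.62, beside 0.57 over 11897 genes. This is across genes of 1 pair of libraries, and genes are not independent. The 28 members with the lowest GC content (40.1% to 48.0%) had a median difference of -0.063 and the 29 with the highest (52.1% to 62.8%) of 0.147. The same correlation over the members was 0.16 between the 5 to 50 mM libraries (-0.17 over all genes), -0.30 between the 25 mM libraries (0.05) and -0.19 between the 25 to 50 mM libraries (-0.47). A trend over all genes was thus also present between the 25 to 50 mM libraries, in the other direction from replicate 2 to 3. The largest member difference within the 5 mM group was that of RPL13, at 0.57, and the median absolute difference was 0.1098 there, against 0.0327 to 0.0616 in the other groups.

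**Figure D2:**
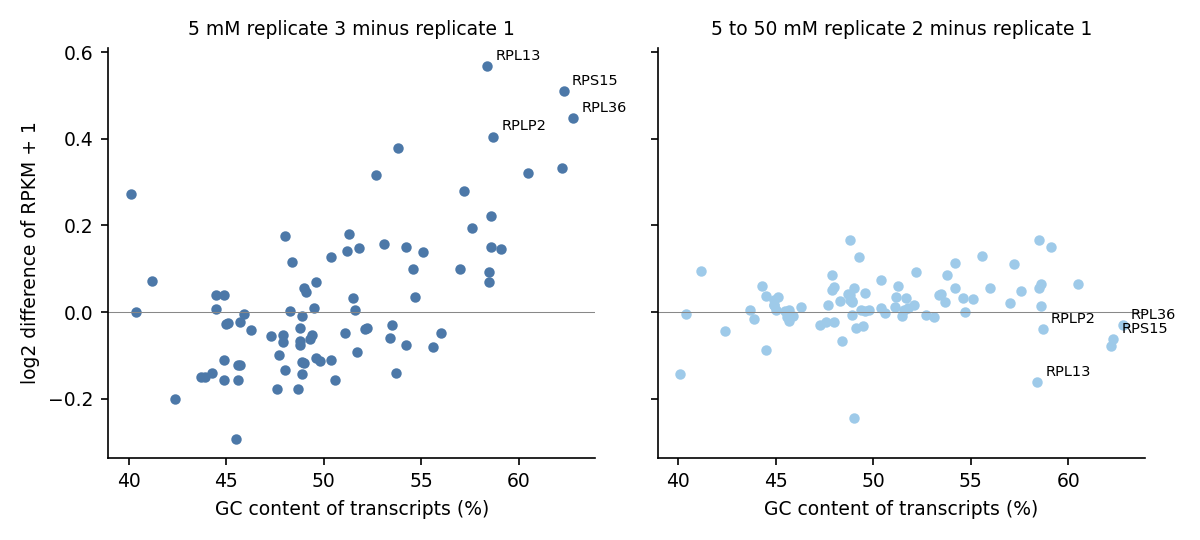
Log2 difference of RPKM + 1 between the 2 libraries of 1 group for each of the 85 tested ribosomal protein genes, against the GC content of its transcripts (%), at 5 mM (left) and at 5 to 50 mM (right). At 5 mM the points climb with GC content (r = 0.62), with RPL13 at 0.57, and at 5 to 50 mM they stay nearer 0 (r = 0.16).

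The rise from 25 to 50 mM also changed no member past the threshold. By limma 0 of 85 passed at an adjusted p under 0.05, where 0.00876% of all 11422 genes tested passed, which is 1 gene. At an unadjusted p under 0.05, 2 members were higher (RPS19 and RPL24) and 0 lower, against 2.8% and 6.45% of all genes, and limma-voom gave 0 at the adjusted threshold. The changes ran from -0.16 to 0.11 on the log2 scale, 58 of 85 were positive, and their median was 0.025 beside -0.035 for all genes.

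RPS19, a 40S protein whose loss underlies part of Diamond-Blackfan anaemia, read 1227 and 1187 RPKM at 25 mM and 1281 and 1327 RPKM at 25 to 50 mM, so the groups did not overlap. Its log2 change was 0.11 ± 0.04 (limma, adjusted p = 0.525). RPL24, which bridges the subunits, read 982 and 986 RPKM at 25 mM and 1037 and 1085 RPKM at 25 to 50 mM, with a log2 change of 0.11 ± 0.04 (limma, adjusted p = 0.528). At the low end stood RPLP1, a protein of the stalk, at -0.16, RPS15 at -0.14 and RPL13 at -0.11, none past the threshold. RPLP1 read 1906 and 1923 RPKM at 25 mM and 1847 and 1595 RPKM at 25 to 50 mM, so 1 library set its difference. Without 25 to 50 mM replicate 2, RPLP1 was lower by 0.26 and RPS10 higher by 0.21 on the log2 scale, the 2 calls of that fit, where 6.08% of all genes were lower and 0.747% higher.

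The difference between the rises was tested in 1 fit of all 8 libraries, and 0 of 85 members passed by limma, where 0.0251% of all 11941 genes did. At an unadjusted p under 0.05, 0 members were higher and 2 lower (RPLP0 and RPS25), against 3.74% and 2.29% of all genes, and limma-voom gave 0. The difference is the change from 5 to 50 mM minus the change from 25 to 50 mM, and its median was -0.067 over the members and 0.009 over all genes. RPLP0 had a change of -0.14 from 5 mM and of 0.03 from 25 mM, with a difference of -0.16 ± 0.07 (limma, adjusted p = 0.805). RPS26 had the lowest value, -0.25 ± 0.11 (limma, adjusted p = 0.86). No member was shown to answer the rise differently by history.

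**Figure D3:**
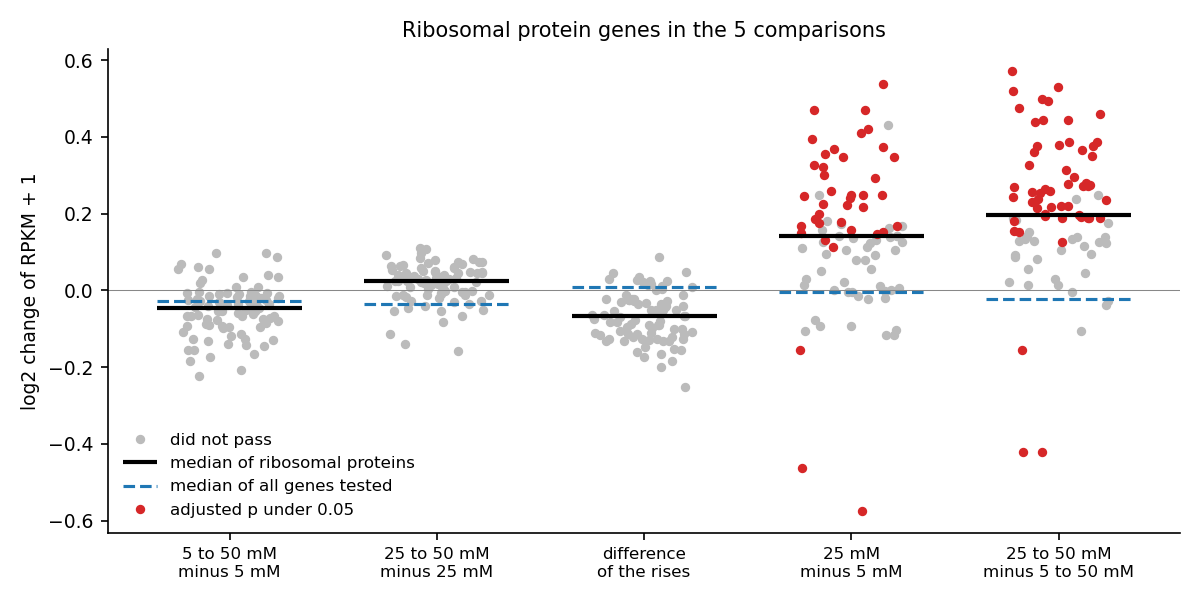
Log2 change of RPKM + 1 for each of the 85 tested ribosomal protein genes in 5 comparisons, with red points past the adjusted p of 0.05 and grey points not past it. Black lines are member medians and dashed blue lines medians of all genes tested. In the rises and in their difference all points are grey, with medians of -0.046, 0.025 and -0.067, and in the comparisons of history most red points lie above 0, with medians of 0.142 and 0.196.

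The history of the culture went with larger differences than the rise did. Relative levels of ribosomal protein genes, in RPKM, were more often higher than lower in cells kept at 25 mM than in those kept at 5 mM. Of 85 members, 36 were higher and 3 lower by limma at an adjusted p under 0.05, and 46 did not pass. By the same test 17.0% of all 11941 genes were higher and 22.1% lower. The shares among the members were 42.4% higher and 3.53% lower. Their median log2 difference was 0.142 beside -0.004 for all genes. At 50 mM, reached from 25 or from 5 mM, 51 members were higher in the 25 to 50 mM group and 3 lower, where 18.1% and 23.3% of all genes were, with a median of 0.196 beside -0.023. All 36 higher members of the first comparison were among the 51 of the second (100% and 70.6% of each list), and the 3 lower members were shared. The libraries of these comparisons are separate, but both come from 1 fit with 1 spread. History coincides with the deposited table and with anything that separated the cultures, so these cannot be told apart.

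The counts of calls moved with single libraries. Without 25 mM replicate 1 the comparison of 25 with 5 mM gave 23 higher and 1 lower, where 10.3% and 15.1% of all genes were, and without 25 mM replicate 3 it gave 20 higher and 1 lower, where 9.95% and 16.7% were. At 50 mM, 28 were higher and 1 lower without 5 to 50 mM replicate 1, where 10.3% and 16.4% of all genes were, and 33 and 1 without 25 to 50 mM replicate 3, where 10.8% and 17.3% were. The counts over all genes thus fell in the same fits. In 53 of the 85 members all 4 libraries kept at 25 mM were above all 4 kept at 5 mM, as in 21.9% of all genes, and in 3 members all 4 were below, as in 26.5% of all genes. The other 29 overlapped.

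The split of all genes moved with the scaling, which bears on the background. With quantile normalization 22.2% of all genes were higher and 17.3% lower at 25 mM, with 32 members higher and 3 lower. After removal of a trend with gene length the shares were 25.7% and 17.1%, with 57 members higher and 2 lower. After removal of a trend with transcript GC content they were 32.6% and 19.4%, with 64 and 2. At 50 mM quantile normalization gave 25.8% and 17.1% of all genes, with 41 members higher and 2 lower. There median centring gave 23.4% and 19.9%, with 61 and 2, the length trend 30.4% and 17.0%, with 74 and 0, and the GC trend 35.2% and 19.4%, with 73 and 2. The median of all genes moved from -0.023 to 0.093 at most (the length trend at 50 mM), while the median of the members less that of all genes ranged from 0.048 to 0.23 at 25 against 5 mM and from 0.074 to 0.302 at 50 mM, the lowest both times with quantile normalization.

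Among the 40S genes, 16 of 31 were higher and 1 lower at 25 against 5 mM (51.6% and 3.23%, beside 17.0% and 22.1% of all genes). At 50 mM 19 were higher and 1 lower (61.3% and 3.23%, beside 18.1% and 23.3% of all genes). RPSA, a protein of the 40S body that also serves as a laminin receptor, read 1008 and 982 RPKM at 5 mM, 911 and 972 at 5 to 50 mM, 1344 and 1298 at 25 mM and 1311 and 1491 at 25 to 50 mM. Every library kept at 25 mM was above every library kept at 5 mM. RPSA was 1.33-fold higher at 25 than at 5 mM (log2 0.41 ± 0.07; limma, adjusted p = 0.00224). At 50 mM its difference was 1.49-fold (log2 0.57 ± 0.07; limma, adjusted p = 0.000424), the largest of any member there.

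RPS24, a 40S protein affected in Diamond-Blackfan anaemia, read 732 and 673 RPKM at 5 mM, 697 and 687 at 5 to 50 mM, 979 and 965 at 25 mM and 976 and 973 at 25 to 50 mM. The libraries of a history lay close together and the histories were far apart. Its level was 1.39-fold higher at 25 mM (log2 0.47 ± 0.05; limma, adjusted p = 0.000239) and 1.41-fold at 50 mM (log2 0.49 ± 0.05; limma, adjusted p = 0.000178).

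RPS25, which some viral mRNAs need in order to start translation inside the message, read 1036 and 1039 RPKM at 5 mM, 989 and 993 at 5 to 50 mM, 1331 and 1359 at 25 mM and 1394 and 1408 at 25 to 50 mM. RPS25 was the member with the smallest adjusted p at 50 mM, where its log2 difference was 0.50 ± 0.04 (limma, adjusted p = 4.37e-05), after 0.37 ± 0.04 at 25 against 5 mM (limma, adjusted p = 0.000205). RPS12 read 1643 and 1680 RPKM at 5 mM and 2100 and 2189 RPKM at 25 mM, a 1.29-fold difference without overlap (limma, adjusted p = 0.000515). RPS15A, at 1.31-fold, RPS3, a protein at the entry of the mRNA channel, at 1.28-fold, and RPS29, at 1.27-fold, were also higher at 25 mM, with adjusted p of 0.00114, 0.00131 and 0.00151 in limma's test.

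RPS27A, made as a fusion with ubiquitin, read 1713 and 1574 RPKM at 5 mM and 1949 and 1953 at 25 mM, without overlap, and its log2 difference was 0.25 ± 0.05 (limma, adjusted p = 0.00661). RPS6, the 40S protein that the S6 kinases phosphorylate downstream of mTORC1, read 1783 and 1779 RPKM at 5 mM and 1924 and 1977 at 25 mM. Its log2 difference of 0.13 ± 0.04 passed narrowly (limma, adjusted p = 0.0365), was -0.001 with quantile normalization, and lost its call when any 1 of the 8 libraries was left out (adjusted p of 0.0505 to 0.171). At 50 mM RPS6 was higher by 0.23 ± 0.04 on the log2 scale (limma, adjusted p = 0.0031), and by 0.07 with quantile normalization (adjusted p = 0.189).

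RPS20, on the head of the 40S subunit, was the 1 core gene that was lower. RPS20 read 1820 and 1751 RPKM at 5 mM, 1798 and 1762 at 5 to 50 mM, 1598 and 1610 at 25 mM and 1600 and 1595 at 25 to 50 mM, so all 4 libraries kept at 25 mM were below the others. It was 1.11-fold lower in both comparisons (log2 -0.15 ± 0.04 and -0.16 ± 0.04; limma, adjusted p = 0.0184 and 0.0168), but 0.015 and 0.039 after removal of the length trend, where it did not pass (adjusted p = 0.895 and 0.719). It did not pass with median centring either (adjusted p = 0.0584 and 0.147). After removal of the GC trend RPS20 stood at -0.063 and -0.057 and did not pass (limma, adjusted p = 0.194 and 0.229). Both calls were also lost in limma without the mean-variance trend (adjusted p = 0.0572 and 0.053) and with the replicate block (adjusted p = 0.0797 and 0.119). The call of RPS20 at 25 against 5 mM was lost without 25 mM replicate 1 or 3. The call at 50 mM was lost without any 1 of the 4 libraries compared there (adjusted p of 0.0656 to 0.119).

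Among the 43 core 60S genes outside the stalk, 19 were higher (44.2%) and 0 lower at 25 against 5 mM, beside 17.0% and 22.1% of all genes. At 50 mM 29 were higher (67.4%) and 0 lower, beside 18.1% and 23.3% of all genes. RPL32 read 1266 and 1135 RPKM at 5 mM, 1259 and 1256 at 5 to 50 mM, 1668 and 1655 at 25 mM and 1715 and 1746 at 25 to 50 mM. No library of one history came near the other. RPL32 was 1.39-fold higher at 25 mM (log2 0.47 ± 0.05; limma, adjusted p = 0.000453) and 1.38-fold at 50 mM (limma, adjusted p = 0.000479).

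RPL4, one of the large proteins of the 60S subunit, with a loop that reaches the peptide exit tunnel, read 1056 and 977 RPKM at 5 mM, 979 and 983 at 5 to 50 mM, 1383 and 1335 at 25 mM and 1351 and 1466 at 25 to 50 mM. All libraries kept at 25 mM were higher. RPL4 was 1.34-fold higher at 25 mM (log2 0.42 ± 0.06; limma, adjusted p = 0.000933) and 1.43-fold at 50 mM (log2 0.52 ± 0.06; limma, adjusted p = 0.000307). RPL29 was 1.27-fold higher at 25 mM (limma, adjusted p = 0.000851) and RPL26, which is also known to bind the p53 mRNA, was 1.16-fold higher (limma, adjusted p = 0.00483, and 0.0904 with quantile normalization).

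RPL13, on the surface of the 60S subunit, read 1587 and 1691 RPKM at 25 mM and 1578 and 1455 at 25 to 50 mM. Its 5 mM libraries, at 998 and 1479 RPKM, straddled the lowest of these. The log2 difference of 0.43 ± 0.16 at 25 against 5 mM did not pass (limma, adjusted p = 0.0677), but did with median centring (0.451, adjusted p = 0.0382). The one at 50 mM, 0.47 ± 0.16, passed (limma, adjusted p = 0.0472) but was lost with quantile normalization (adjusted p = 0.0842) and when 25 mM replicate 1 or 3, 25 to 50 mM replicate 2 or 3, or 5 to 50 mM replicate 1 or 2 was left out (adjusted p of 0.0769 to 0.202). The call at 50 mM was also lost with no filter on low values and without the mean-variance trend (limma, adjusted p = 0.0925 and 0.0667). Robust estimation and the replicate block lost it too (limma, adjusted p = 0.0895 and 0.165). RPL13 is 1 of the members in which the 5 mM libraries parted with GC content.

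The 5 members of highest level had log2 differences from 0.01 to 0.17 at 25 against 5 mM. RPL41 had a log2 difference of 0.01 ± 0.08 at 25 against 5 mM and of 0.14 ± 0.08 at 50 mM (limma, adjusted p = 0.922 and 0.196), RPL37A of 0.03 ± 0.05 and 0.15 ± 0.05 (adjusted p = 0.681 and 0.0488) and RPS27 of 0.17 ± 0.06 and 0.13 ± 0.06 (adjusted p = 0.0598 and 0.139). These values moved with the scaling. With quantile normalization RPL41 was higher by 0.282 at 25 against 5 mM and by 0.379 at 50 mM (limma, adjusted p = 0.0123 and 0.0029), and after removal of the length trend by 0.608 and 0.586 (adjusted p = 0.0012 and 0.0013). At 25 against 5 mM RPS27 passed with quantile normalization at 0.208, and after removal of the length trend RPS27 passed at 0.451 and RPL37A at 0.288 (limma, adjusted p = 0.00679, 0.00716 and 0.03). RPL37 was higher in both, by 0.15 ± 0.04 and 0.24 ± 0.04 (limma, adjusted p = 0.0281 and 0.00345). RPL39 had 0.16 ± 0.06 at 25 against 5 mM (limma, adjusted p = 0.0688) and was higher by 0.19 ± 0.06 at 50 mM (adjusted p = 0.0383). At 25 against 5 mM RPL39 passed at 0.295 with quantile normalization and at 0.562 after removal of the length trend (limma, adjusted p = 0.00305 and 0.00157). RPL39 did not pass in the difference between the rises. At 50 mM RPL37A and RPL39 lost their calls with no filter on low values, without the mean-variance trend and with the replicate block (limma, adjusted p of 0.0716 to 0.147). In the same settings RPL37 lost its call at 25 against 5 mM (limma, adjusted p of 0.07 to 0.108). The calls of RPL37A and RPL39 at 50 mM were lost without 25 mM replicate 1 or 3, 25 to 50 mM replicate 2 or 3, or 5 to 50 mM replicate 1, and that of RPL39 also without 5 to 50 mM replicate 2 (adjusted p up to 0.314 and 0.158). The call of RPL37 at 25 against 5 mM was lost without 25 mM replicate 1 or 3, 5 mM replicate 3, or 5 to 50 mM replicate 1 or 2 (adjusted p up to 0.141).

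In the stalk, which recruits the elongation factors that depend on GTP, 0 of 3 members passed at 25 against 5 mM and 1 of 3 at 50 mM. Of all genes, 17.0% were higher and 22.1% lower at 25 against 5 mM, and 18.1% and 23.3% at 50 mM. Counts of 3 genes cannot be told apart from these shares. RPLP0 read 1780 and 1744 RPKM at 5 mM, 1865 and 1796 at 25 mM, 1576 and 1623 at 5 to 50 mM and 1803 and 1924 at 25 to 50 mM. At 50 mM it was 1.16-fold higher (limma, adjusted p = 0.00824), which fell to 0.05 on the log2 scale with quantile normalization (adjusted p = 0.411) and lost its call without 25 to 50 mM replicate 3 (adjusted p = 0.0603) or 5 to 50 mM replicate 1 (adjusted p = 0.0699). With the replicate block RPLP0 did not pass at 50 mM either (limma, adjusted p = 0.0558). RPLP1 and RPLP2 overlapped between the histories, both before the rise and at 50 mM. RPLP1 had log2 differences of 0.00 ± 0.10 and -0.03 ± 0.10, and RPLP2 of 0.13 ± 0.13 and 0.10 ± 0.13. RPLP2 passed after removal of the length trend, at 0.341 and 0.327 (limma, adjusted p = 0.0162 and 0.0171).

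**Figure D4:**
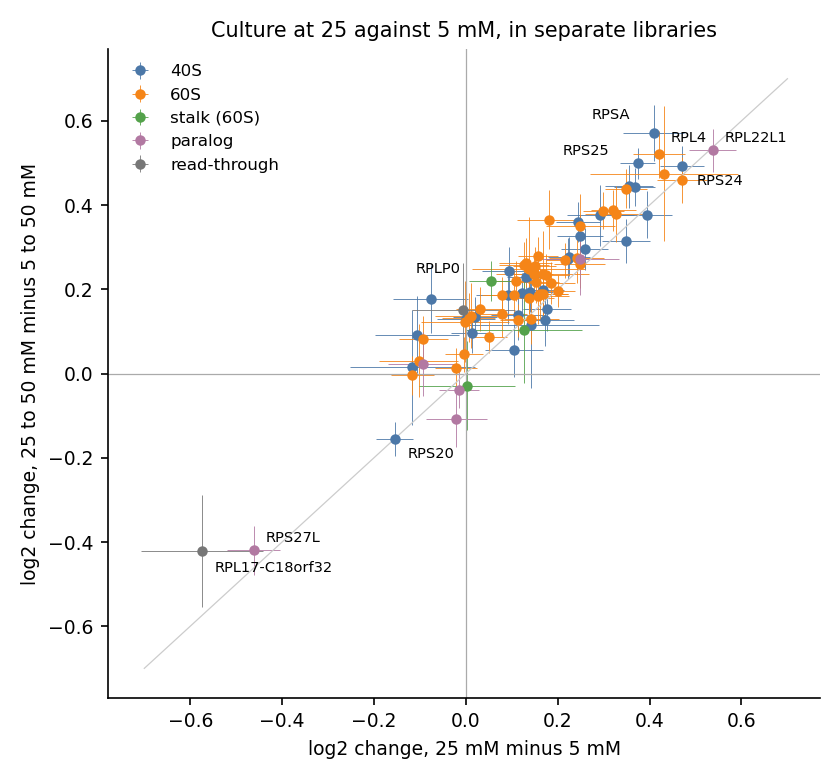
Log2 change of RPKM + 1 between cultures kept at 25 and at 5 mM (horizontal, SE as bars) against the same change at 50 mM (vertical, SE as bars) for the 85 tested ribosomal protein genes, coloured by class, with a line of equal change. Most points lie in the upper right, RPL22L1 at 0.54 and 0.53 and RPSA at 0.41 and 0.57, and RPS20, RPS27L and RPL17-C18orf32 lie in the lower left.

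The paralogs went different ways. Of 6 tested, 1 was higher and 1 lower at 25 against 5 mM (16.7% each), near the 17.0% and 22.1% of all genes. At 50 mM 2 were higher and 1 lower (33.3% and 16.7%), where 18.1% and 23.3% of all genes were. With 6 genes these counts do not set the paralogs apart from all genes. RPL22L1, which can take the place of RPL22 in the 60S subunit, read 131 and 131 RPKM at 5 mM, 139 and 138 at 5 to 50 mM, 181 and 199 at 25 mM and 201 and 201 at 25 to 50 mM. RPL22L1 was 1.45-fold higher at 25 than at 5 mM (log2 0.54 ± 0.05; limma, adjusted p = 0.000173), the largest positive difference of any member there, and 1.44-fold at 50 mM (limma, adjusted p = 0.000173). RPL22 itself read 760 and 732 RPKM at 5 mM and 736 and 751 at 25 mM, which overlap, with a log2 difference of -0.005 ± 0.04 (limma, adjusted p = 0.942). RPL22L1 therefore went from 17.2% and 17.8% of RPL22 at 5 mM to 24.6% and 26.5% at 25 mM.

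RPS27L, a paralog of RPS27 known as a p53 target, went the other way. RPS27L read 522 and 548 RPKM at 5 mM, 484 and 517 at 5 to 50 mM, 372 and 404 at 25 mM and 379 and 368 at 25 to 50 mM, so every library kept at 25 mM was below every other. It was 1.38-fold lower at 25 mM (log2 -0.46 ± 0.06; limma, adjusted p = 0.000613) and 1.34-fold lower at 50 mM (log2 -0.42 ± 0.06; limma, adjusted p = 0.000913). The call at 50 mM was lost after removal of the length trend, where the difference was -0.16 (adjusted p = 0.0533). RPS27L made 25.4% and 30.2% of the level of RPS27 at 5 mM and 17.4% and 18.2% at 25 mM.

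The other paralogs differed less. RPL7L1, a paralog of RPL7 that acts in building the large subunit, read 134 and 110 RPKM at 5 mM and 143 and 146 at 25 mM, with a log2 difference of 0.25 ± 0.09 that did not pass (limma, adjusted p = 0.0524) but did with quantile normalization (0.275, adjusted p = 0.0359). At 50 mM, where it read 119 and 119 against 143 and 145 RPKM, the difference of 0.27 ± 0.09 passed (limma, adjusted p = 0.0369) but lost its call when 25 mM replicate 1 or 3, 25 to 50 mM replicate 2 or 3, or 5 to 50 mM replicate 1 or 2 was left out (adjusted p of 0.0635 to 0.135). The 50 mM call of RPL7L1 was also lost with no filter on low values and without the mean-variance trend (limma, adjusted p = 0.0632 and 0.0591). With the replicate block it did not pass either (limma, adjusted p = 0.0631). RPL39L, RPL36AL and RPL26L1 had log2 differences of -0.09, -0.02 and -0.02 at 25 against 5 mM and did not pass. After removal of the length trend RPL39L was higher, by 0.306 and, at 50 mM, by 0.358 (limma, adjusted p = 0.0273 and 0.0126). RPL36AL stood at 158% to 199% of RPL36A, the 1 paralog above its core gene. RPL36A shares its sequence start and recovered length with the read-through gene RPL36A-HNRNPH2, so reads between these may have been split by the counting.

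RPL17-C18orf32, a read-through of RPL17 with its neighbour, was the member with the largest fall. It held 105 and 165 reads at 5 mM, 116 and 103 at 5 to 50 mM, 90 and 94 at 25 mM and 93 and 73 at 25 to 50 mM, which makes 7.10 and 8.77, 7.23 and 6.45, 4.91 and 5.04, and 5.51 and 4.25 RPKM. The libraries kept at 25 mM were the lower ones. It was 1.49-fold lower at 25 mM on the log2(RPKM + 1) scale (log2 -0.57 ± 0.13; limma, adjusted p = 0.0114) and by -0.42 ± 0.13 at 50 mM (limma, adjusted p = 0.037). Without 25 mM replicate 1 or 3 the first call was lost (adjusted p of 0.0655 and 0.0541), and the second was lost without 25 mM replicate 1 or 3, 25 to 50 mM replicate 3, or 5 to 50 mM replicate 1 or 2 (adjusted p of 0.0629 to 0.205). The call at 50 mM was also lost with no filter on low values and with quantile normalization (limma, adjusted p = 0.0685 and 0.13). It was lost too after removal of the length trend and with the replicate block (limma, adjusted p = 0.0723 and 0.109). On the recovered reads it did not pass either (limma-voom, adjusted p = 0.0634). The reads of RPL17-C18orf32 share exons with RPL17, so the value is uncertain, and few reads lie behind it. RPL17 did not pass in either comparison.

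**Figure D5:**
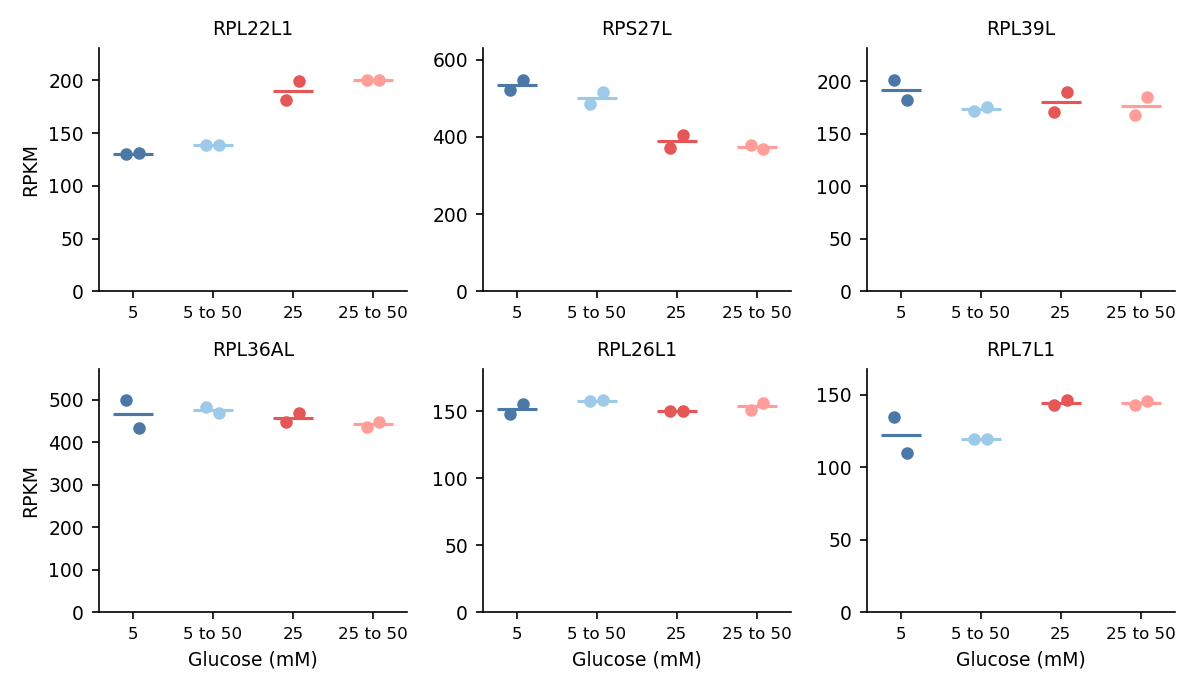
RPKM of the 6 tested ribosomal protein paralogs in each of the 8 libraries by glucose group, with points for libraries and lines for group means, each panel from 0. RPL22L1 lies at 131 to 139 RPKM in cultures kept at 5 mM and at 181 to 201 in those kept at 25 mM, RPS27L lies higher at 5 mM (484 to 548) than at 25 mM (368 to 404), and RPL39L, RPL36AL and RPL26L1 overlap between the histories over all 8 libraries.

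A set of 16 members was higher in both comparisons of history in every one of the 19 other fits run for each: 11 with another filter, pseudocount, scaling, trend, robust estimation, limma-voom or replicate block, and 8 with 1 library left out. This is 18.8% of the 85 tested, beside 5.91% of all 11941 genes. Among them were RPL14, RPL22L1, RPL29, RPL32, RPL4, RPL7A, RPS12, RPS15A, RPS24, RPS25, RPS27A, RPS29, RPS3, RPS7 and RPSA, singled out by this after the values were seen. No member was lower in every fit of both, where 7.56% of all genes were. RPS27L was the 1 member lower in all 19 at 25 against 5 mM, as were 8.91% of all genes.

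Members with and without the tract at a listed start both held higher genes. Of 48 with the tract, 23 were higher and 0 lower at 25 against 5 mM, with a median of 0.154, and 32 were higher and 0 lower at 50 mM, with a median of 0.217. Of 21 tested without it, 7 were higher and 2 lower at 25 mM, with a median of 0.13, and 11 were higher and 2 lower at 50 mM, with a median of 0.189. Of all genes, 17.0% were higher and 22.1% lower at 25 against 5 mM, and 18.1% and 23.3% at 50 mM. RPS24 with a tract of 14 bases, RPSA with 7, and RPL32 and RPL4 with none at the start printed above, were among the largest differences. RPL32 had 3 listed starts, and the letters printed for RPL4 hold a run of C and T past the first base. The search counts only a tract that begins at the first base, so the class without it can hold such runs. The difference between these classes was not tested. By GC content, 13 of the 28 members of lowest GC content, 14 of the 28 in the middle and 9 of the 29 of highest were higher at 25 against 5 mM. Their medians were 0.141, 0.178 and 0.126. The 3 lower members were all among the 28 of lowest GC content.

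Other genes of the translation machinery were described from lists. FAU and RACK1 encode ribosomal proteins outside the symbol rule: both were higher at 25 against 5 mM (log2 0.19 and 0.14; limma, adjusted p = 0.0336 and 0.0375). Of 16 elongation factors and other mRNAs known for the tract, 4 were higher and 1 lower at 25 against 5 mM (17.0% and 22.1% of all genes), with a median of 0.096, and 7 were higher and 0 lower at 50 mM (18.1% and 23.3% of all genes). EEF1G, a subunit of the complex that reloads the main elongation factor, averaged 919 ± 57.6 RPKM at 5 mM and 1190 ± 42.0 at 25 mM (SD, n = 2; limma, adjusted p = 0.00187). EEF1A1, the main elongation factor itself, averaged 5734 ± 546 and 5744 ± 191 RPKM and did not pass. TPT1 was lower at 25 mM (log2 -0.18; limma, adjusted p = 0.0248) and NACA, EIF3F and NAP1L1 higher. In both rises and in their difference 0 of the 16 passed.

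Of 30 genes of ribosome biogenesis, 8 were higher and 1 lower at 25 against 5 mM (17.0% and 22.1% of all genes), with a median of 0.067, and 8 were higher and 0 lower at 50 mM (18.1% and 23.3% of all genes). TAF1D, a subunit of the factor that recruits RNA polymerase I to ribosomal DNA, averaged 37.2 ± 1.43 RPKM at 5 mM and 53.8 ± 5.39 at 25 mM (limma, adjusted p = 0.00117). UBTF, which also serves RNA polymerase I, was higher by 0.27 on the log2 scale, and so were GNL3, LTV1, NOLC1, NCL, WDR43 and NOB1, by 0.18 to 0.32, while PES1 was lower by 0.15. In both rises and in their difference 0 of the 30 passed.

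Of 16 genes that regulate these mRNAs, 2 were higher and 2 lower at 25 against 5 mM, where 17.0% and 22.1% of all genes were. MYC, which drives transcription of ribosomal protein genes, averaged 45.4 ± 2.19 RPKM at 5 mM, 60.05 at 5 to 50 mM, 60.8 ± 0.172 at 25 mM and 61.7 at 25 to 50 mM. MYC was higher at 25 than at 5 mM (log2 0.41; limma, adjusted p = 0.000636), and its change from 5 to 50 mM, 0.40, did not pass (limma, adjusted p = 0.134). EIF4EBP2 was higher by 0.25 (limma, adjusted p = 0.00983). MLST8, a subunit of mTORC1, was lower by 0.42 (limma, adjusted p = 0.00511), and MAF1 lower by 0.14 (limma, adjusted p = 0.0493). MTOR, RHEB and LARP1 had differences of -0.02, -0.01 and 0.07 and did not pass.

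Other features of the libraries moved with history too. The totals recovered from the RPKM values were 21538898 to 27372851 reads per library, counted in genes, and are not the sequenced depth. Of 16 cardiomyocyte markers, 4 reached 1 RPKM, and MYL2, NKX2-5 and TBX5 were at 0 in all 8 libraries. The summed level of these markers was 8.75 to 9.15 RPKM at 5 mM, 10.8 to 11.7 at 5 to 50 mM, 3.39 to 5.21 at 25 mM and 3.30 to 3.61 at 25 to 50 mM. By limma 0 of the 3 tested were higher and 2 lower at 25 against 5 mM, where 17.0% and 22.1% of all genes were. At 50 mM 0 were higher and 3 lower, where 18.1% and 23.3% of all genes were. All 12 fibroblast markers reached 1 RPKM, with sums of 6475 to 7296 RPKM that overlapped between histories. Singly they went both ways: 6 of the 12 were higher and 4 lower at 25 against 5 mM by limma. At 50 mM 4 were higher and 5 lower, beside the same shares of all genes. COL1A1 was among those higher at 25 than at 5 mM (log2 0.53; limma, adjusted p = 0.0055) and VIM among those lower (log2 -0.30; limma, adjusted p = 0.0149). Of 8 markers of endothelium, smooth muscle and blood, 2 reached 1 RPKM, and their sums of 233 to 264 RPKM at 5 mM history and 114 to 121 at 25 mM history came mainly from CD68. By defining markers the libraries thus showed fibroblast genes at high level and most cardiac genes near 0, against the label. The part of these shifts in the ribosomal protein results was not tested.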

How the data were processed

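RNA of 8 AC16 libraries was sequenced. The authors deposited 2 tables of RPKM values, 1 for each maintenance glucose. Alignment with STAR to hg38 is named in the submitters' processing notes, while the counting tool, annotation and lengths are not given in the sources used here. Library totals and gene lengths that turn RPKM into whole reads were sought, and 100% of 16297 genes above 0 came out whole within 1e-06 reads. Groups were taken from the labels. The test was limma's moderated test (limma 3.58.1 under R 4.3.3, two-sided, with a mean-variance trend) of log2(RPKM + 1). It took genes that reached 1 RPKM in 2 or more libraries of the fit, with Benjamini-Hochberg adjustment over all of them and a threshold of 0.05. Each rise was fitted on its own 4 libraries, and comparisons across histories on all 8, since the upper quartiles of RPKM differed by less than 1.5 times. A fold change on this scale understates that of low genes. The script was tested on simulated data. The symbol rule, the lists and the tests were chosen with earlier results of these data known. Members named with values were the highest and lowest 5, those called (up to 10 per direction), the 3 largest changes per direction in each rise, the paralogs with their core genes, RPSA, RPLP0, RPLP1, RPLP2, RPS6 and RPS27A. From each other list, called genes and the largest changes were eligible. Replicate numbers pair no samples by the labels. Some members are counted in the totals and are not reported here by name.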

Additional observations from a re-analysis of the deposited data

How the results depend on the processing

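Counts of members called at 0 in both rises and in their difference stayed at 0 under all alternatives except single libraries left out, with 0 to 13 for the rise from 5 mM and 0 to 2 for the rise from 25 mM. At 25 against 5 mM 39 were called, with 59 after removal of the length trend, 66 after removal of the GC trend (chosen after seeing the data) and 21 to 46 with 1 library left out. At 50 mM 54 were called, with 35 under the replicate block and 29 to 63 with 1 left out. The replicate block, over all 8 libraries, gave 24 members higher and 2 lower at 25 against 5 mM. Over all genes it gave 1357 and 2099 there, beside 2032 and 2639 in the main fit. For both rises and their difference it called 0 members and 0 of all genes. The 25 mM and 5 mM groups share numbers 1 and 3 (r = 0.26 between their differences over 11941 genes), but nothing says that a number marks a shared sample. Median changes moved as follows with quantile normalization, median centring, the length trend and the GC trend: for the rise from 25 mM -0.002, 0.074, 0.073 and 0.056 (main 0.025), for 25 against 5 mM 0.111, 0.162, 0.309 and 0.235 with 0.127 to 0.152 on leaving out a library, and at 50 mM 0.145, 0.256, 0.395 and 0.319 with 0.189 to 0.224. The median difference of the rises moved to -0.035, -0.108 and -0.090 with the first 3. On the log2 scale the summed level at 25 against 5 mM gave 0.171 by share of reads, 0.129 by quantile normalization and 0.161 without the 5 highest members, at 50 mM 0.247 and 0.163 by the first 2, and for the rise from 25 mM -0.008 by quantile normalization. The sign of the estimate turned at 25 against 5 mM for RPL39L, which had no call and gained one (0.306), and for RPS20 (0.015 and, at 50 mM, 0.039), both with the length trend removed, and for RPS6 (-0.001) with quantile normalization. RPS20 and RPS6 lost their calls there. The cause was not tested. Of 2336 other values of named members, 2115 kept direction and side, 60 gained a call, 41 lost one and 116 moved. A count of 0 allows up to 3 reads, so levels below that can go undetected. The RPKM gives no check on the counting of paralogs or read-through genes.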

Other observations

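The genes of the mitochondrial ribosome, a separate set of proteins that translate the mRNAs of the mitochondrial genome, had medians near 0 in both comparisons of history. Of 78 tested, 9 were higher and 13 lower at 25 against 5 mM by limma at an adjusted p under 0.05 (17.0% and 22.1% of all genes), with a median of -0.01, and 11 were higher and 7 lower at 50 mM (18.1% and 23.3% of all genes), with a median of 0.005. MRPL48 averaged 29.7 RPKM at 5 mM and 42.6 at 25 mM (log2 0.51; limma, adjusted p = 0.000569), and MRPL16 averaged 108 and 141 RPKM (log2 0.39). MRPS33 averaged 105 RPKM at 5 mM and 81.5 at 25 mM (log2 -0.36), and MRPL2 averaged 54.2 and 44.5 RPKM (log2 -0.28). In both rises and in their difference 0 of the 78 passed the adjusted threshold in limma's test, with 5, 4 and 4 past an unadjusted p under 0.05. Of 70 with a RefSeq start, 6 (8.57%) had the pyrimidine tract, against 48 of 70 cytosolic members.

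Differences between libraries of separate groups shared a pattern. Over 11941 genes, the difference of replicate 3 from 1 at 5 mM correlated at r = -0.67 with that of replicate 3 from 2 at 25 to 50 mM, a correlation across genes, which are not independent.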
